A study of Mus musculus with 12 samples.

Results

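The genes of antigen presentation described here are 10 rows of a table of 53599 mouse genes, chosen by symbol. Of these, 7 belong to the MHC class I route (H2-K1, H2-D1, B2m, Tap1, Tap2, Psmb8 and Psmb9) and 3 to the class II route (Cd74, H2-Aa and H2-Ab1). All 10 were among the 16210 genes with enough counts to be tested. The 12 libraries were bulk RNA-seq of mouse liver cells, 3 from each of 4 sorted populations, with the genotype given only as WT. Every animal received AAV8-TBG-Cre, a viral vector in which the hepatocyte promoter TBG drives Cre, so that EGFP marked hepatocytes and their descendants. A diet with 0.1% DDC, which damages bile ducts, began 1 week later and lasted 8 weeks. The early population was EGFP+ Cd24- Epcam-, the intermediate EGFP+ Cd24+ Epcam-, and the full population EGFP+ Cd24+ Epcam+. BEC, the biliary epithelial cells, were EGFP- Epcam+. All 4 groups therefore came from injured liver and none from a liver without the diet. The reporter allele, strain, age and sex are not named in the labels, and nothing says that libraries of 1 group came from separate animals, so p-values measure the spread between these samples, which may be technical.

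MHC class I molecules display peptides from proteins made inside the cell to CD8 T cells. A heavy chain such as H2-K or H2-D pairs with beta-2 microglobulin (B2m), and peptides cut by the proteasome reach it through the Tap1-Tap2 transporter. Psmb8 and Psmb9 are subunits of the immunoproteasome, which replace constitutive subunits when interferon acts on a cell. MHC class II molecules display peptides from endocytosed proteins to CD4 T cells. H2-Aa and H2-Ab1 encode the alpha and beta chains of H2-A, and Cd74 encodes the invariant chain, which occupies the groove until the molecule reaches the endosome. Hepatocytes normally carry little class II, and bile duct cells can acquire it in inflammation.

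Library totals lay between 15112893 and 19731887 assigned reads, and 3 counts corresponded to 0.128 to 0.273 counts per 1000000 (CPM). Levels below are CPM scaled by the trimmed mean of M values (TMM). The sorting gene Epcam had mean levels of 0.592, 18.8, 254 and 866 CPM in early, intermediate, full and BEC libraries. The hepatocyte gene Alb had 73507, 12631, 2582 and 1653 CPM in the same order. A gene was called changed at a Benjamini-Hochberg adjusted p under 0.05 in edgeR's quasi-likelihood test, fitted on all tested genes and all 12 libraries. The choice of scaling changed calls at the first and second steps and in comparisons with the early group. With library totals alone, the median gene moved from 0.06 to 0.72 (log2) between early and intermediate, from 0.14 to 1.005 between early and full, and from 0.14 to 1.004 between early and BEC. Directions that turn with that choice are given below.

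The promoters of the class I genes are shown first, because the heavy chains and B2m form 1 molecule while their values, given below, took different courses. The sequences are from a set of RefSeq promoters (GRCm38.p6). The set used here had an entry for 7 of the 10 genes and none for Tap2, Cd74 or H2-Ab1, which does not mean that RefSeq lacks these genes. Each is the 250 bases before the start, 5′ to 3′ on the gene's strand, with matches to any of 4 short motifs in capitals. The motifs, searched on both strands, were the interferon-stimulated element core (GAAA, any 2 bases, GAAA; in 3.04% of 27025 promoter windows of this kind), the GAS core (TTC, any 3 bases, GAA; 7.18%), the CCAAT box ATTGG (34.5%) and the NF-kB core (GGG, any 2 bases, T, any base, CCC; 4.13%), whose matches can overlap each other. The shares were counted over the same 250 bases before the start. H2-K1 lies at chr17:34000348-34000597 on the minus strand, H2-D1 at chr17:35262844-35263093 on the plus strand and B2m at chr2:122147437-122147686 on the plus strand.
H2-K1: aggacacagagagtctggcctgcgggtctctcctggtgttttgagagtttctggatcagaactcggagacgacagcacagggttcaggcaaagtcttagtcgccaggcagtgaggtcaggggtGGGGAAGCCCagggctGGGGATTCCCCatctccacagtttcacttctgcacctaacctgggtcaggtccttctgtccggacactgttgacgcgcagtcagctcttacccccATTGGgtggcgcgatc
H2-D1: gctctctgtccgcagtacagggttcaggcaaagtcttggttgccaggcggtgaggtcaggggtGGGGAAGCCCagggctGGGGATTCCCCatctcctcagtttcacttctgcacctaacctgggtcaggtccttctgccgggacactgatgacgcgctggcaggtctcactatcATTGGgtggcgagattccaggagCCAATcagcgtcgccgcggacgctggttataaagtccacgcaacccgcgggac
B2m: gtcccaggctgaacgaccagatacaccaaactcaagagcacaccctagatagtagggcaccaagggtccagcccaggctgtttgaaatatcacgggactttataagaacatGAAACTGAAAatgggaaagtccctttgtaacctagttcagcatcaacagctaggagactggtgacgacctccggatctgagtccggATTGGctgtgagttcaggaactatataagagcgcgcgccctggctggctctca
Both heavy-chain promoters held 3 NF-kB core matches, at -127, -111 and -110 in H2-K1 and at -187, -171 and -170 in H2-D1, and the pair shared an identical run of 47 bases. Positions count from the RefSeq start of each gene, and shared sites lie farther from it in H2-D1. The H2-K1 window therefore ends before the stretch that holds the CCAAT box at -53 in H2-D1. The B2m promoter held no NF-kB core match in this window, 1 match to the interferon-stimulated core (GAAACTGAAA, at -139) and a CCAAT box at -53, a motif that H2-K1 (at -16) and H2-D1 (at -76 and -53) held too. Its longest run shared with either heavy chain was 8 bases. These matches describe letters only. The patterns are strict, and a stretch such as gggaaagtccc in B2m does not match the NF-kB one. The lack of a match is therefore not the lack of a site.

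Of the 7 class I genes, 3 were called between early and intermediate (H2-K1, B2m and Psmb9), all lower, in a comparison where 25.7% of all tested genes were called lower and 54.4% in either direction. Between intermediate and full, 2 were called higher (Tap1 and Psmb9), against 20.8% of all genes called higher, 19.8% lower and 40.7% either way. Between full and BEC, 1 was called higher (Tap2) and 2 lower (B2m and H2-D1), against 10.7% and 10.6%, or 21.3% either way. Medians over the 7 genes were -0.26, 0.25 and 0.12 (log2) for these steps, beside 0.06, 0.01 and 0.00 for all genes. With library totals alone the first of these medians was 0.40, against 0.72 for all genes, and 4 class I genes were called higher and 1 lower. At the second step it was 0.45, against 0.21 for all genes, and 6 were then called higher in place of 2, with H2-K1, H2-D1, Tap2 and Psmb8 joining. In sorted bulk samples, fewer cells of a type and less RNA per cell cannot be told apart, and this holds for every result here.

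H2-K1 and H2-D1 encode the classical heavy chains, with small changes between groups. H2-K1 stood at 2281, 2085 and 2018 CPM in the early group, 1704, 1662 and 1457 in the intermediate group, 1941, 2032 and 1773 in the full group, and 1362, 1700 and 1530 in the BEC group. All 3 intermediate libraries lay below all early and all full ones, and BEC libraries reached into the intermediate range. H2-K1 fell from early to intermediate by 0.40 on the log2 scale (SE 0.12, edgeR adjusted p = 0.00873), but was 0.26 higher with library totals alone (adjusted p = 0.0565). From intermediate to full the difference was 0.25 (SE 0.11, edgeR adjusted p = 0.097), and 0.45 and called with library totals alone (adjusted p = 0.00583). From full to BEC it was -0.32 (SE 0.11, edgeR adjusted p = 0.0628), which passed the threshold with a replicate block (adjusted p = 0.0294) and without BEC replicate 2 (adjusted p = 0.0486).

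H2-D1, the other heavy chain, read 1398, 1146 and 1148 CPM in the early group, 1177, 1173 and 995 in the intermediate group, 1335, 1394 and 1184 in the full group, and 849, 1113 and 978 in the BEC group. Early libraries overlapped with both intermediate and full ones, every full library lay above every intermediate one, and every BEC library lay below every full one. Its differences were -0.14 (SE 0.13) from early to intermediate and 0.23 (SE 0.13) from intermediate to full, at edgeR adjusted p of 0.377 and 0.185, and with library totals alone they were 0.53 and 0.43 and both called (adjusted p = 0.00262 and 0.0165). H2-D1 fell from full to BEC by 0.41 on the log2 scale (SE 0.13, edgeR adjusted p = 0.0356). The test no longer passed without full replicate 1, full replicate 2, BEC replicate 1 or BEC replicate 3, with adjusted p between 0.0833 and 0.127. H2-K1, H2-D1 and the other heavy chains share near-identical stretches, and how reads that fit several of them were counted is not given in the sources used here, so each of these levels is uncertain.

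B2m, the light chain that every class I heavy chain needs, had the steepest course of the class I members. It stood at 2207, 2558 and 2105 CPM in the early group, 1189, 1193 and 1234 in the intermediate group, 1020, 1031 and 1050 in the full group, and 758, 758 and 674 in the BEC group. The 4 groups did not overlap, and their order was early, intermediate, full, BEC from high to low. B2m fell by 0.93 on the log2 scale from early to intermediate (SE 0.10, edgeR adjusted p = 4.13e-06), and by 0.26 with library totals alone (adjusted p = 0.0265). The difference from intermediate to full, -0.22 (SE 0.10), missed the threshold (edgeR adjusted p = 0.0975) in the fit on all libraries, and passed it with the 6 libraries of those groups alone (adjusted p = 0.0363). B2m fell again from full to BEC by 0.50 (SE 0.10, edgeR adjusted p = 0.00251).

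**Figure D1:**
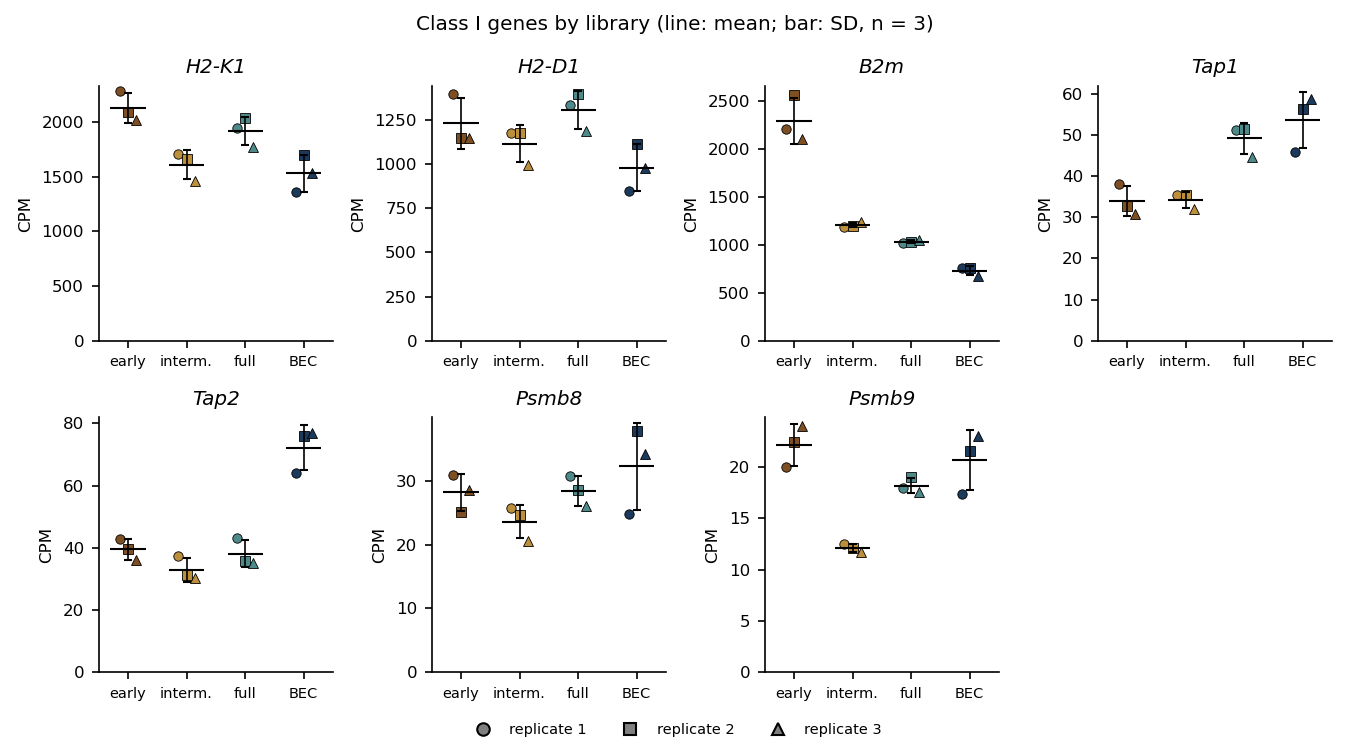
Level of each class I gene in CPM (linear axis from 0) in the 12 libraries, by sorted population. Points are libraries with a shape per replicate, lines are group means and bars are SD (n = 3). The 3 early B2m libraries (2105 to 2558 CPM) sit above all others, and the 3 BEC libraries of Tap2 (64.0 to 76.8 CPM) sit above the other groups.

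The ratio of light to heavy chain within a library does not depend on the scaling of the library. The log2 ratio of B2m to H2-K1 counts averaged 0.10 ± 0.18 in the early group, -0.41 ± 0.15 in the intermediate group, -0.89 ± 0.12 in the full group and -1.06 ± 0.19 in the BEC group (SD, n = 3). The ratio of B2m to H2-D1 went from 0.90 ± 0.25 through 0.12 ± 0.17 and -0.33 ± 0.14 to -0.42 ± 0.22 (SD, n = 3). Early, intermediate and full libraries did not overlap in either ratio, while full and BEC libraries did. These 2 ratios were picked after their values were seen and carry no test.

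Tap1 and Tap2 encode the 2 chains of the peptide transporter. Tap1 was called at the second step and Tap2 from full to BEC. Tap1 was at 38.0, 32.7 and 30.9 CPM in the early group, 35.3, 35.3 and 31.9 in the intermediate group, 51.2, 51.5 and 44.7 in the full group, and 45.8, 56.2 and 58.6 in the BEC group. Every full and BEC library lay above every early and intermediate one. Tap1 rose from intermediate to full by 0.52 (log2, SE 0.11, edgeR adjusted p = 0.00233). From early to intermediate its difference was 0.01 (SE 0.12, edgeR adjusted p = 0.949), with library totals alone 0.68 and called, and from full to BEC 0.12 (SE 0.11, edgeR adjusted p = 0.528).

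Tap2 was at 42.7, 39.7 and 36.1 CPM in the early group, 37.3, 31.2 and 30.3 in the intermediate group, 43.3, 35.9 and 35.3 in the full group, and 64.0, 75.9 and 76.8 in the BEC group. The 3 EGFP+ groups overlapped with one another, and all BEC libraries lay above them. For each replicate number, the intermediate library lay below the early and the full library of that number. Tap2 rose from full to BEC by 0.92 (log2, SE 0.12, edgeR adjusted p = 7.10e-05). Its earlier differences were -0.26 (SE 0.12, edgeR adjusted p = 0.081) and 0.21 (SE 0.12, edgeR adjusted p = 0.174), but with library totals alone 0.40 and 0.41 and both called (adjusted p = 0.00874 and 0.012). With TMM scaling the first passed the threshold on the lower side without intermediate replicate 1 (adjusted p = 0.0339). Within libraries the log2 ratio of Tap2 to Tap1 averaged 0.22 ± 0.056 in the early group, -0.06 ± 0.13 in the intermediate group, -0.37 ± 0.14 in the full group and 0.43 ± 0.046 in the BEC group (SD, n = 3). The full libraries had the lowest ratios and the BEC libraries the highest, in a ratio picked after its values were seen and not tested.

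Psmb9 and Tap1 start close together and are transcribed away from each other. The stretch from one start to the other spans chr17:34187331-34187555 (GRCm38.p6), and is printed here on the plus strand because both genes rose at the same step. It is 225 bases long, Psmb9 reads away to the left and Tap1 to the right.
Psmb9-Tap1 interval: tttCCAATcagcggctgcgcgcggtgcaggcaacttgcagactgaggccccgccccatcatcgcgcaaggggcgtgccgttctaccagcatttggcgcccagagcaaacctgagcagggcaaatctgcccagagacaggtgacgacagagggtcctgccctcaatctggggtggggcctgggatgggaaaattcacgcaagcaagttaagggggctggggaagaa
It held 1 CCAAT box match, in capitals, and no match to the other 3 motifs in these letters.

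Psmb9 had a trough in the intermediate population. Its levels were 20.01, 22.5 and 24.04 CPM in the early group, 12.5, 12.2 and 11.7 in the intermediate group, 17.9, 19.0 and 17.6 in the full group, and 17.4, 21.5 and 23.03 in the BEC group. All 3 intermediate libraries lay below the other 9. Psmb9 fell from early to intermediate by 0.87 on the log2 scale (SE 0.13, edgeR adjusted p = 5.31e-05), and with library totals alone was 0.21 lower and not called (adjusted p = 0.177). It rose from intermediate to full by 0.58 (SE 0.12, edgeR adjusted p = 0.00194) and differed by 0.19 from full to BEC (SE 0.12, edgeR adjusted p = 0.347). The second step minus the first was 1.45 (SE 0.22, edgeR adjusted p = 0.000586), and 0.99 with library totals alone (adjusted p = 0.00472). Although Psmb9 and Tap1 both rose at the second step, the log2 ratio of Psmb9 to Tap1 had moved earlier, from -0.61 ± 0.29 in the early group to -1.49 ± 0.045 in the intermediate group, -1.43 ± 0.085 in the full group and -1.37 ± 0.025 in the BEC group (SD, n = 3, picked after its values were seen).

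Psmb8, the immunoproteasome subunit that stands in for Psmb5, was called in none of the 3 steps with TMM scaling, and in the first 2 with library totals alone. It read 30.8, 25.1 and 28.5 CPM in the early group, 25.6, 24.5 and 20.6 in the intermediate group, 30.7, 28.6 and 26.0 in the full group, and 24.7, 37.8 and 34.1 in the BEC group. All 4 groups overlapped with at least 1 neighbour, and BEC replicate 1 was the low one of its group. The differences were -0.26, 0.27 and 0.18 (SE 0.15 each, edgeR adjusted p = 0.178, 0.177 and 0.476), with unadjusted p above 0.05 in each. With library totals alone the first 2 were 0.41 and 0.47 (adjusted p = 0.0316 and 0.0243).

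The constitutive 20S proteasome, the form found in most cells, moved together. Of its 14 subunits, 14 fell from early to intermediate (25.7% of all genes) and 12 from intermediate to full (19.8%), with medians of -0.52 and -0.37 beside 0.06 and 0.01 for all genes (0.15 and -0.17 beside 0.72 and 0.21 with library totals alone). Psmb5, the constitutive subunit in the place of Psmb8, fell from early to intermediate by 1.06 (log2, edgeR adjusted p = 7.62e-05). Psmb6, the counterpart of Psmb9, fell by 0.50 (edgeR adjusted p = 0.000904) but with library totals alone was 0.16 higher in intermediate cells. Psmb7, the counterpart of Psmb10, fell by 0.78 and Psmb10 itself, the other catalytic immunoproteasome subunit, by 0.73 (edgeR adjusted p = 0.000979 and 2.19e-05), and neither was called with library totals alone. None of the 14 was called between full and BEC by edgeR or by DESeq2, and 1 had an unadjusted p under 0.05.

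Ratios within a library show the balance of immune to constitutive subunits. The log2 ratio of Psmb8 to Psmb5 counts was -2.18, -1.93 and -2.11 in the early group, -1.30, -1.25 and -1.31 in the intermediate group, -0.56, -0.49 and -0.48 in the full group, and -0.32, -0.22 and -0.37 in the BEC group. No group overlapped with the next, and the ratio was higher at every step. Each step had a two-sided exact permutation p of 0.1, which is the floor for groups of 3, and an adjusted p of 0.18 over 9 such comparisons. For Psmb9 over Psmb6 the means were -2.59 ± 0.19, -2.95 ± 0.10, -2.0 ± 0.19 and -1.68 ± 0.12 (SD, n = 3), lowest in intermediate libraries. Its exact permutation p, from a test that makes no use of the replicate numbers, was 0.1, 0.1 and 0.2 for the 3 steps. From full to BEC it went from -2.18 to -1.81, from -1.81 to -1.64 and from -2.01 to -1.58 in replicates 1, 2 and 3, higher in BEC in each pair. For Psmb10 over Psmb7 the means were -0.36, -0.33, -0.25 and -0.29, with exact permutation p of 1, 0.5 and 0.7, and all groups overlapped. The planned pairs are those that occupy the same catalytic site.

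**Figure D2:**
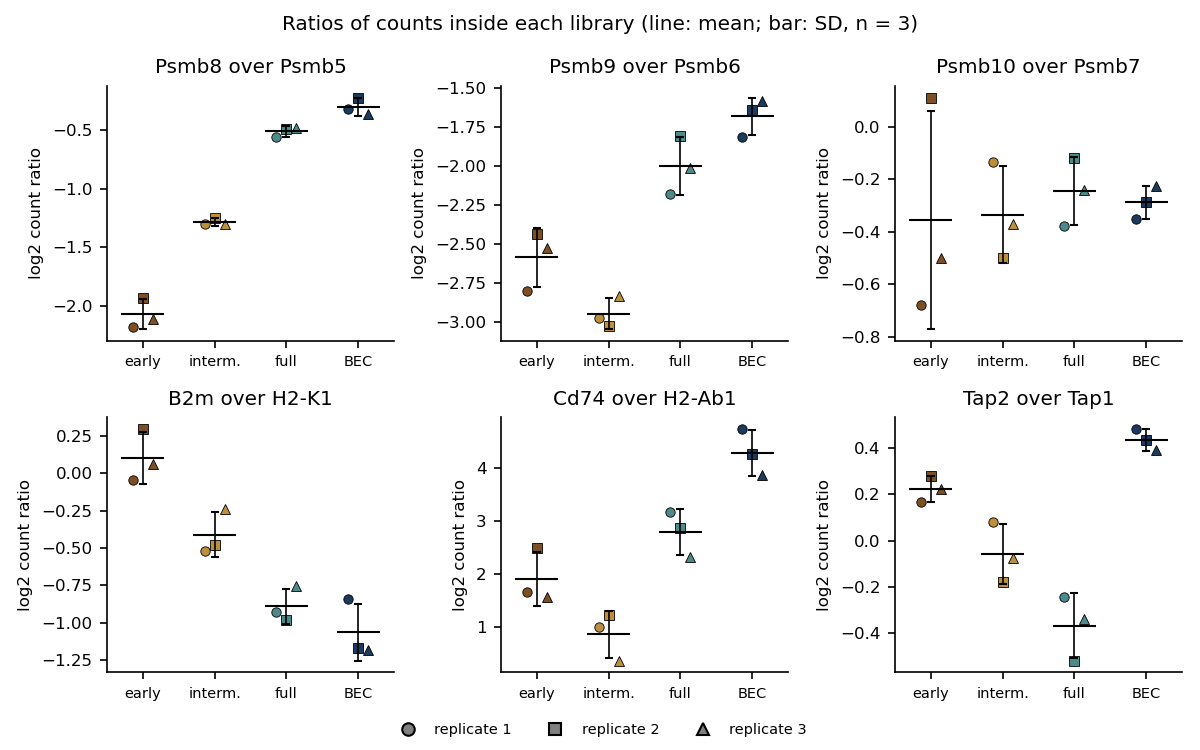
Log2 ratios of counts of 2 genes in the same library, for 6 pairs of genes and the 12 libraries by sorted population. Points are libraries, lines are group means and bars are SD (n = 3). Psmb8 over Psmb5 goes from a mean of -2.07 in early to -0.30 in BEC libraries without overlap between neighbouring groups, while Psmb10 over Psmb7 stays between -0.36 and -0.25.

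Other genes of the class I route were taken from lists. Of 13 loading and trimming genes, 10 were called lower and 2 higher from early to intermediate (25.7% and 28.7% of all genes), with a median of -0.46 beside 0.06 for all genes (0.20 beside 0.72 with library totals alone). Among them, Erap1, the peptidase that trims peptides in the endoplasmic reticulum, fell by 0.84 (edgeR adjusted p = 3.78e-06). Psme1 and Psme2, which form the PA28 activator of the proteasome, fell by 0.47 and 0.73 (edgeR adjusted p = 0.000226 and 1.61e-05). With library totals alone Psme1 was 0.20 higher in intermediate cells, and neither Erap1 nor Psme2 was called. From intermediate to full, 4 of the 13 were lower and 1 higher (19.8% and 20.8% of all genes), and from full to BEC 1 was higher (10.7%).

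Of 14 other class I heavy chains, 13 were tested, with calls in both directions. At the first step 4 were higher and 6 lower (28.7% and 25.7% of all genes), at the second 5 and 5 (20.8% and 19.8%), and from full to BEC 2 and 6 (10.7% and 10.6%). The medians were -0.09, 0.26 and -0.26, beside 0.06, 0.01 and 0.00 for all genes, and the first was 0.57 with library totals alone, beside 0.72. H2-Q10, a class I protein that liver secretes, was highest in early cells. Its libraries read 3178, 2718 and 3239 CPM in early, 633, 600 and 683 in intermediate, 171, 127 and 180 in full, and 39.6, 43.0 and 61.0 in BEC. It fell at every step, by 2.25, 2.0 and 1.73 on the log2 scale (edgeR adjusted p = 1.52e-07, 1.02e-06 and 8.31e-06), and every group lay apart from the next. H2-T23, which encodes the nonclassical molecule Qa-1, fell by 0.83 and 0.96 at the first and second step (edgeR adjusted p = 3.00e-05 and 1.65e-05), the first not called with library totals alone. H2-M3, which presents formylated peptides, rose by 1.08 and 0.76 (edgeR adjusted p = 0.00154 and 0.00979) from a mean of 2.80 CPM. H2-Q4 rose by 0.64 and 0.77 (edgeR adjusted p = 0.00339 and 0.00122).

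**Figure D3:**
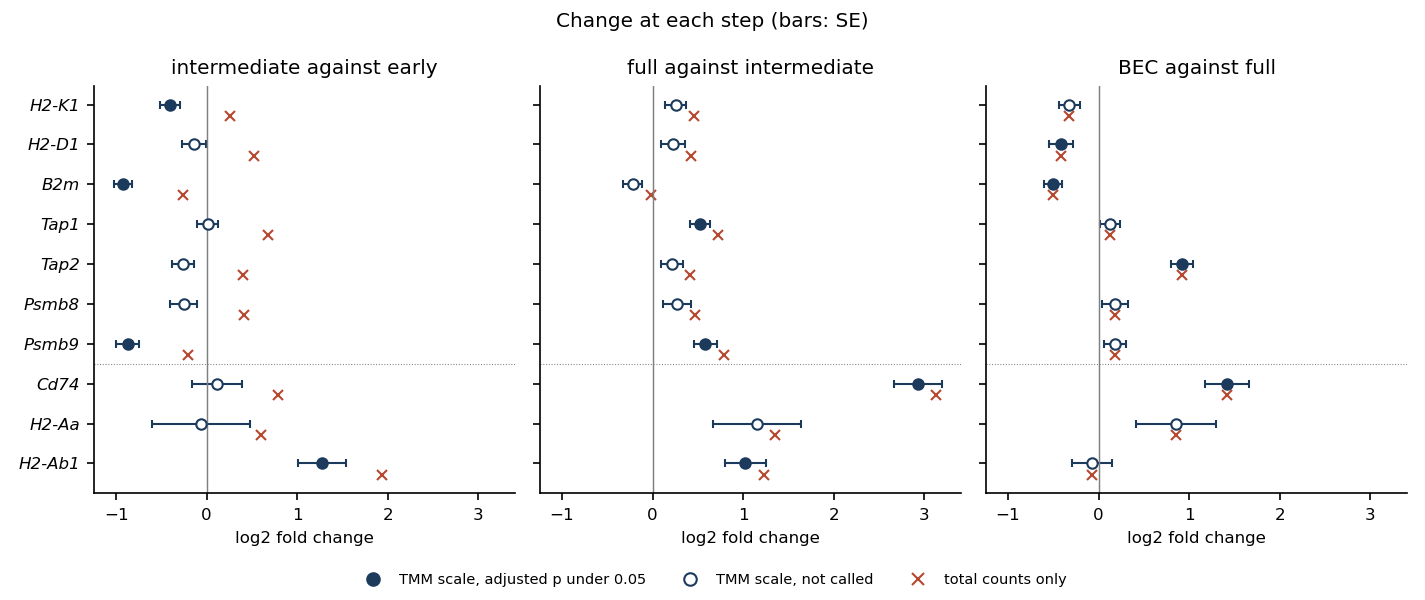
Log2 fold change with its standard error for each of the 10 genes at the first step (intermediate against early), the second (full against intermediate) and from full to BEC, with filled points where edgeR's adjusted p was under 0.05 and crosses for the value with library totals alone. On the TMM scale class I genes lie between -0.93 and 0.92, and Cd74 reaches 2.93 and 1.42.

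The class II genes had another course. Of the 3, 1 was called higher from early to intermediate (H2-Ab1; 28.7% of all genes were called higher), 2 from intermediate to full (Cd74 and H2-Ab1; 20.8%) and 1 from full to BEC (Cd74; 10.7%). In BEC against early all 3 were higher, where 40.0% of all genes were. The median changes of the 3 genes at the steps were 0.12, 1.15 and 0.86, beside 0.06, 0.01 and 0.00 for all genes. These counts were the same with replicates 1 and 2 alone, a choice made after seeing the data, which leaves out the lowest full and BEC library of Cd74.

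Cd74 had the largest log2 changes of the 10 genes. It stood at 9.49, 24.1 and 11.7 CPM in the early group, 13.8, 21.3 and 13.6 in the intermediate group, 124, 137 and 109 in the full group, and 336, 335 and 317 in the BEC group. Early and intermediate libraries overlapped, every full library lay far above them, and every BEC library above every full one. Cd74 rose from intermediate to full by 2.93 (log2, SE 0.27, edgeR adjusted p = 1.68e-06) and from full to BEC by 1.42 (SE 0.24, edgeR adjusted p = 0.000801). From early to intermediate the difference was 0.12 (SE 0.27, edgeR adjusted p = 0.746), and 0.78 and called with library totals alone (adjusted p = 0.0212). That first value rested on single libraries, being 0.61 and called without early replicate 2 (adjusted p = 0.0210), and 0.03 to 0.13 lower without early replicate 1, early replicate 3 or intermediate replicate 2. The second step exceeded the first by 2.81 (SE 0.48, edgeR adjusted p = 0.00132).

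H2-Ab1, the beta chain, rose at both steps among the EGFP+ cells. It stood at 2.93, 4.18 and 3.88 CPM in the early group, 6.85, 9.04 and 10.5 in the intermediate group, 13.7, 18.6 and 21.6 in the full group, and 12.5, 17.2 and 21.5 in the BEC group. The first 3 groups did not overlap, and full and BEC covered nearly the same range. H2-Ab1 rose by 1.27 from early to intermediate (log2, SE 0.26, edgeR adjusted p = 0.00107) and by 1.02 from intermediate to full (SE 0.23, edgeR adjusted p = 0.00286). From full to BEC it differed by -0.07 (SE 0.22, edgeR adjusted p = 0.883).

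H2-Aa, the alpha chain, had the lowest level of the 10 genes, also per length of transcript. It stood at 0.475, 2.73 and 1.70 CPM in the early group (6, 30 and 21 counts), 0.692, 2.03 and 1.87 in the intermediate group, 2.25, 3.88 and 4.15 in the full group, and 4.14, 6.29 and 8.18 in the BEC group. Early libraries overlapped with intermediate and full ones, and full with BEC ones, while every full library lay above every intermediate one. The differences were -0.06 (SE 0.54), 1.15 (SE 0.49) and 0.86 (SE 0.44) at the 3 steps, with edgeR adjusted p of 0.939, 0.0757 and 0.214, and with library totals alone the first was 0.60 and the second 1.35 and called (adjusted p = 0.037). With a replicate block the last 2 passed the threshold (adjusted p = 0.00516 and 0.0283), and the second also in DESeq2 (adjusted p = 0.0384). H2-Aa was higher in BEC than in early libraries by 1.94 (SE 0.50, edgeR adjusted p = 0.00301).

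**Figure D4:**
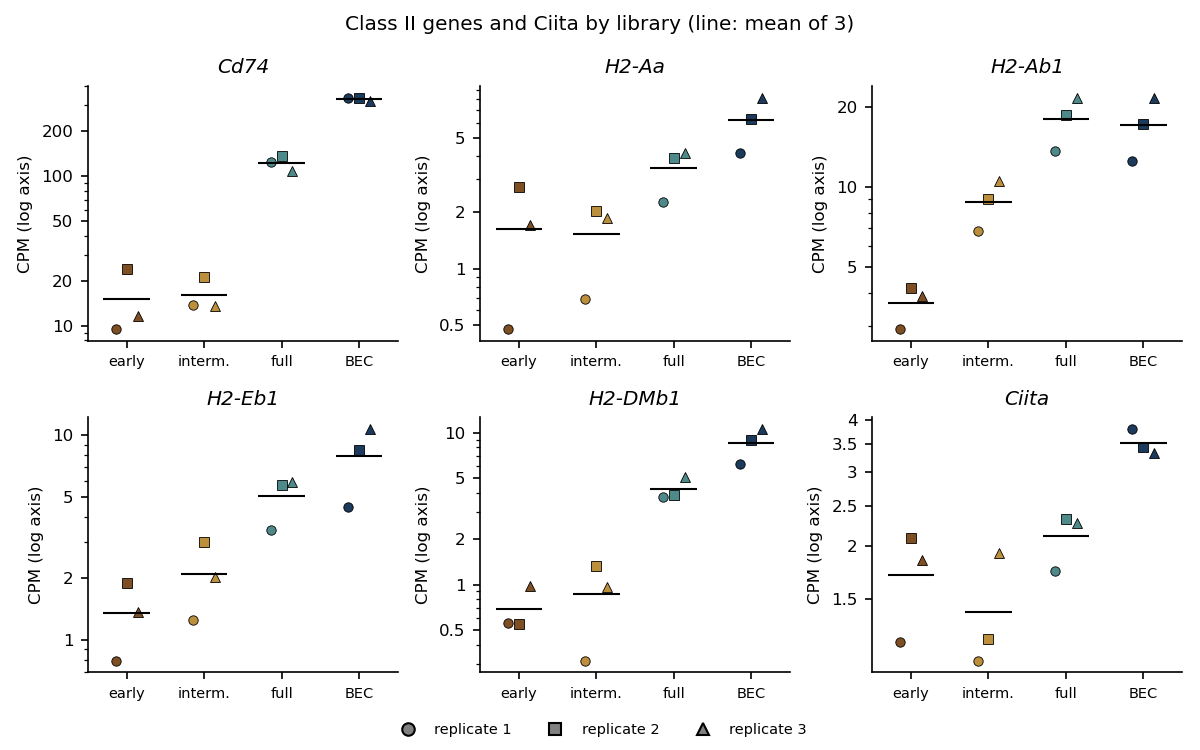
Level of the 3 class II genes and of H2-Eb1, H2-DMb1 and Ciita in CPM (log axis) in the 12 libraries, by sorted population, with 1 point per library and a line at the group mean. Cd74 goes from 9.49 to 24.1 CPM in early libraries to 317 to 336 in BEC, while H2-Aa stays at or below 8.18 CPM.

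The balance of the invariant chain and the chains it accompanies differed between groups. Levels between genes are compared per length here, as CPM per kilobase of the transcript with the longest coding sequence in GENCODE M21. On that scale Cd74 stood at 10.7, 11.5, 87.6 and 234 in early, intermediate, full and BEC means, H2-Aa at 1.45, 1.36, 3.04 and 5.50, and H2-Ab1 at 3.02, 7.27, 14.8 and 14.1. Cd74 was 7.38, 8.48, 28.8 and 42.5 times H2-Aa, and 3.54, 1.58, 5.91 and 16.6 times H2-Ab1. The log2 ratio of Cd74 to H2-Ab1 counts within libraries was lowest in the intermediate group, at 0.86 ± 0.45, and highest in BEC, at 4.30 ± 0.43 (SD, n = 3). Full and BEC libraries did not overlap in it. Cd74 over H2-Aa was 5.76, 5.13 and 4.70 in full replicates 1, 2 and 3, and 6.33, 5.72 and 5.27 in BEC replicates 1, 2 and 3. The ranges overlapped, and the BEC library was higher in each of the 3 same-numbered pairs. These ratios were picked after their values were seen.

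On the same scale of CPM per kilobase, the class I chains stood higher than any class II chain in every group. In BEC the means were 945 for H2-K1, 466 for H2-D1 and 849 for B2m, beside 234 for Cd74. Tap1, Tap2, Psmb8 and Psmb9 lay between 15.3 and 21.0 there, close to H2-Ab1.

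Of 12 other class II chains and loading genes, 8 were tested. From early to intermediate 3 were lower (25.7% of all genes), from intermediate to full 3 were higher and 2 lower (20.8% and 19.8%), and from full to BEC 2 were higher and 1 lower (10.7% and 10.6%). The medians were -0.12, 0.11 and 0.62, beside 0.06, 0.01 and 0.00 for all genes, and the first was 0.54 with library totals alone, beside 0.72. H2-Eb1, the beta chain of H2-E, had 0.791, 1.91 and 1.38 CPM in the early group, 1.26, 3.01 and 2.04 in the intermediate group, 3.45, 5.75 and 5.90 in the full group, and 4.48, 8.48 and 10.7 in the BEC group. It was higher in the BEC group than in the early group by 2.55 (edgeR adjusted p = 0.000107). Its rise of 1.25 from intermediate to full (edgeR adjusted p = 0.0212) was lost without intermediate replicate 1, intermediate replicate 3, full replicate 2 or full replicate 3 (adjusted p between 0.0625 and 0.0766). H2-DMb1, a chain of the H2-M molecule that removes the invariant chain's peptide, rose by 2.27 from intermediate to full (edgeR adjusted p = 0.000317), from a mean of 0.864 CPM to 4.25. Ifi30, a thiol reductase of the endosome, fell by 1.05 at the first step and rose by 0.60 from full to BEC (edgeR adjusted p = 4.92e-05 and 0.00854).

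Among 22 transcription factors and interferon signalling genes that act on MHC genes, 6 were higher and 4 lower at the first step (28.7% and 25.7% of all genes), 4 and 2 at the second (20.8% and 19.8%), and 1 and 2 from full to BEC (10.7% and 10.6%). Each of these counts is below the share over all genes. The medians were -0.0044, 0.13 and 0.03, beside 0.06, 0.01 and 0.00, and the first was 0.66 with library totals alone, beside 0.72. Ciita, the master activator of class II genes, stayed at low counts, with 1.19, 2.09 and 1.86 CPM in the early group, 1.07, 1.21 and 1.92 in the intermediate group, 1.74, 2.32 and 2.27 in the full group, and 3.81, 3.45 and 3.34 in the BEC group. All BEC libraries lay above all others, and Ciita was 1.05 higher in the BEC group than in the early group (log2, edgeR adjusted p = 0.00687). From intermediate to full, where Cd74 rose, Ciita differed by 0.59 and was not called (edgeR adjusted p = 0.143), but was with library totals alone (0.79, adjusted p = 0.0484). Nlrc5, the activator of class I genes, fell from full to BEC by 0.55 (edgeR adjusted p = 0.0147), a call lost without full replicate 2, BEC replicate 1 or BEC replicate 3 (adjusted p between 0.0519 and 0.0669). Irf1, which interferon induces, rose by 0.59 from intermediate to full (edgeR adjusted p = 0.00372), the step at which Tap1 and Psmb9 rose. The interferon gamma receptor chain Ifngr1 rose by 1.06 at the first step (log2, edgeR adjusted p = 0.000231).

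T cells also need costimulation. Of 7 listed genes of costimulation, inhibition and adhesion, 4 were tested, and Cd80, Cd86 and Pdcd1lg2 stayed under the filter. At the first step 2 were higher (Cd40 and Cd274) and 1 lower (28.7% and 25.7% of all genes), and at the second 1 was higher (Cd274; 20.8%). Cd40 had 1, 0 and 1 counts in early and 45, 6 and 11 in intermediate replicates 1, 2 and 3, so most of its intermediate counts came from replicate 1. Cd86 had at most 4 counts in any library. Cd274, the inhibitory ligand PD-L1, rose by 1.17 and 1.38 at the first and second steps (log2, edgeR adjusted p = 0.00788 and 0.00117). Its libraries read 3.08, 1.73 and 1.05 CPM in the early group, 5.53, 4.33 and 3.45 in the intermediate group, 14.1, 10.3 and 10.2 in the full group, and 14.3, 10.3 and 11.7 in the BEC group. Icam1, an adhesion ligand of T cells, was 1.04 higher in the BEC group than in the early group (edgeR adjusted p = 0.00019).

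Class II genes are also the property of leukocytes, so markers of other cells were read in the same libraries. The EGFP+ gate, and the Epcam+ gate in BEC, are meant to leave such cells out. The summed level of 5 pan-leukocyte genes was 0.475 to 2.73 CPM in early, 0.377 to 1.81 in intermediate, 2.17 to 3.02 in full and 2.65 to 7.77 in BEC libraries. Ptprc, which encodes CD45, had at most 1.19 CPM. Summed over 9 T and NK cell genes the highest library had 0.652 CPM, and over 6 neutrophil genes 0.906. Of 8 B cell and plasma cell genes, Ms4a1 was at 0 in all libraries, but the sum was 0.405 to 1.58 CPM in early, 0.931 to 2.89 in intermediate, 6.73 to 23.1 in full and 21.4 to 61.8 in BEC. Igkc and Jchain, made by plasma cells and named after their values were seen, carried most of it. From intermediate to full Igkc rose by 3.03 and Jchain by 3.17 (log2, edgeR adjusted p = 0.000986 and 0.00144). From full to BEC Igkc rose by 1.67 (edgeR adjusted p = 0.0199), and Jchain differed by 1.43 and was not called (edgeR adjusted p = 0.0510). Igkc read 11.2, 4.28 and 17.1 CPM in full libraries and 43.0, 15.6 and 45.1 in BEC, low in replicate 2 of both groups, where Cd74 was 137 and 335 CPM.

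Macrophage markers moved with some class II genes between replicates. The sum of 12 macrophage and Kupffer cell genes without Csf1r was 22.2 to 26.3 CPM in the early group, 6.60 to 18.8 in the intermediate group, 5.70, 11.6 and 26.5 in full replicates 1, 2 and 3, and 5.97, 21.2 and 48.8 in BEC replicates 1, 2 and 3. Cd68 was the largest part of the early sum, at 12.3 to 16.3 CPM in early libraries and 2.52 to 2.94 in intermediate ones. Of the other tested genes of the list, Lyz2, C1qb, C1qc and Cd5l had higher means in intermediate than in early libraries, and Clec4f, Marco and Vsig4 lower ones. C1qa had 0.763 CPM in early and 0.761 in intermediate, and none of these 8 was called between early and intermediate. From full to BEC, Cd68 rose by 1.10 (log2, edgeR adjusted p = 0.0131) and these 8 were not called. Like the macrophage sum, H2-Aa, H2-Ab1 and H2-Eb1 were lowest in replicate 1 and highest in replicate 3 of full and BEC cells. Cd74 was not, since replicate 3 was its lowest library in both groups. With replicates 1 and 2 alone, which still differ in the macrophage sum, H2-Ab1 rose by 1.17 and 1.01 at the first and second steps (edgeR adjusted p = 0.00973 and 0.0166). Csf1r, the receptor of macrophage colony-stimulating factor, rose by 2.64, 1.46 and 0.90 over the 3 steps (log2, each called by edgeR), from a mean of 3.94 CPM in early to 127 in BEC, and differed little between replicates. Of 7 dendritic cell genes, Siglech was at 0 in all libraries, and the sum, mostly Zbtb46 (named, like Siglech and Ms4a1, after their values were seen), was 7.09 to 16.8 CPM in early, 18.6 to 27.2 in intermediate and full, and 22.4 to 26.3 in BEC. The part of these cells in the class II values was not tested.

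**Figure D5:**
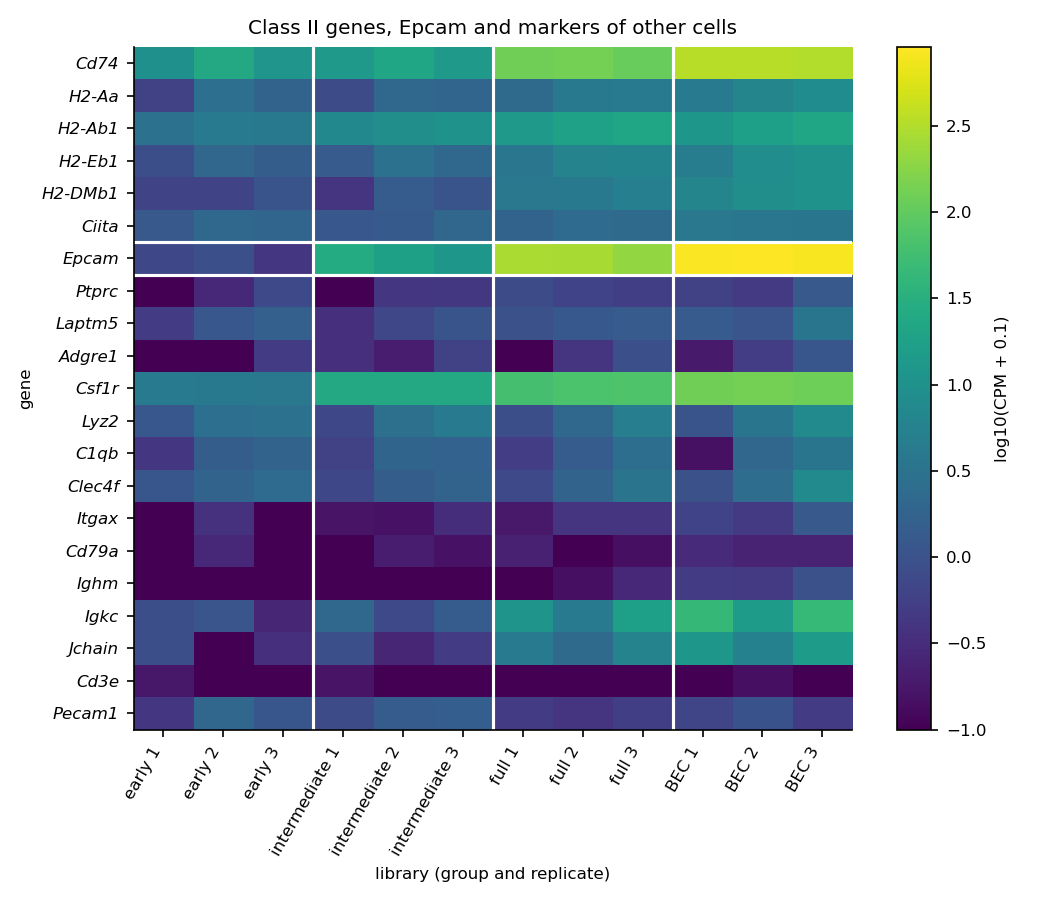
Heat map of 6 class II route genes, Epcam and 14 marker genes of other cells (rows) in the 12 libraries (columns), coloured by log10 of CPM plus 0.1. Cd74 (109 to 137 CPM in full, 317 to 336 in BEC), Epcam and Csf1r stand out in full and BEC libraries, while Ptprc stays at or below 1.19 CPM throughout.

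Liver endothelial and stellate cells carry class I genes too, and their summed markers were on average highest in the early group. In the stellate sum, early and intermediate libraries overlapped. The sum of 9 endothelial genes was 42.2 to 53.2 CPM in early, 22 to 30.4 in intermediate, 10.1 to 10.3 in full and 4.34 to 12.3 in BEC libraries. Stab1 and Stab2 carried most of it, with early means of 30.5 and 11.9 CPM and intermediate means of 16.5 and 5.02, and were the 2 of 7 tested genes called lower at the first step. The other 7 genes had means of 0.444 to 1.54 CPM in early and 0.115 to 1.42 in intermediate libraries, with Kdr, Clec4g, Tek, Lyve1 and Erg lower in intermediate means and Pecam1 and Cdh5 higher, and none of the 5 tested was called. The sum of 8 stellate cell and fibroblast genes was 96.0 to 275 CPM in early, 60.1 to 166 in intermediate, 45.4 to 75.4 in full and 49.9 to 88.0 in BEC, mostly Col3a1, Reln and Col1a1. These carrying genes, like Cd68 above, were named after their values were seen. The EGFP+ gate, which marks descendants of hepatocytes, is meant to leave such cells out. B2m was highest in early libraries as well, and the part of these cells in its level was not tested.

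Against the early group directly, comparisons that share those libraries with the first step, class I genes split. In full cells Tap1 was called higher by 0.53 and B2m and Psmb9 lower by -1.15 and -0.29 (edgeR adjusted p = 0.000904, 2.19e-07 and 0.0494), where 39.1% of all genes were higher, 32.1% lower and 71.2% either. With library totals alone Psmb9 was 0.58 higher, and its call was also lost without early replicate 2, early replicate 3 or any 1 of the full libraries (adjusted p up to 0.168). In BEC, Tap1 and Tap2 were called higher by 0.66 and 0.87, and H2-K1, H2-D1 and B2m lower by -0.48, -0.33 and -1.65, where 40.0% of all genes were higher, 33.0% lower and 73.1% either. H2-K1 and H2-D1 were instead 0.39 and 0.54 higher in BEC with library totals alone, and the call of H2-D1 was lost without early replicate 1, BEC replicate 1 or BEC replicate 3. Psmb8 was called in BEC against early without BEC replicate 1 (0.36, adjusted p = 0.0248). Cd74 was 3.04 and 4.46 higher in full and BEC than in early libraries, and H2-Ab1 2.29 and 2.23 higher (edgeR adjusted p from 6.11e-09 to 3.05e-06). H2-Aa, 1.09 higher in full than in early libraries (edgeR adjusted p = 0.0688), was called without early replicate 2 or full replicate 1 (adjusted p = 0.0223 and 0.0436). H2-Aa was also called there with a replicate block and by DESeq2.

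The change of slope from the first step to the second was called for 4 of the 10 genes: Psmb9, Cd74, H2-K1 (0.66, edgeR adjusted p = 0.0404) and B2m (0.70, edgeR adjusted p = 0.0152), all higher, where 5.64% of all genes were and 16.4% were called in either direction. With library totals alone the last 2 were 0.19 and 0.24 and not called. The H2-K1 call was also lost without early replicate 1, any 1 of the intermediate libraries, full replicate 1 or full replicate 2, and the B2m call without intermediate replicate 1 or 2.

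Genes with courses like those of the 2 classes were found by the root mean square difference of centred log2 CPM over the 12 libraries from the mean course of the class. Nearest to class I were Gnpda1 (0.21), Tcta (0.21), Gpr19 (0.22), Rhbdd3 (0.22) and Nlrx1 (0.22). Its own members lay between 0.14 (Psmb8) and 0.58 (B2m), with H2-K1 at 0.16, H2-D1 at 0.20, Psmb9 at 0.21, Tap1 at 0.30 and Tap2 at 0.41. Nearest to class II were Slc7a8 (0.27), Tfpi (0.30), H2-Eb1 (0.31), Nbeal2 (0.33) and Phf11d (0.34), while Cd74 itself lay at 0.80. The search was limited to genes with a log2 range of at least 1, and the likeness is a description with no test.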

How the data were processed

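Gene counts of 12 RNA-seq libraries of FACS-sorted mouse liver cells were deposited by the authors as 1 table of raw counts per gene. The submitters' processing notes name STAR 2.7.10b, featureCounts 2.0.1, DESeq2 and the build GRCm39, with no role or order. The gene annotation, strandedness and treatment of reads that fit several places are not given in the sources used here, so overlapping and antisense genes cannot be told apart. The labels' protocols name a column RNA kit and library preparation by a sequencing company.

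Groups come from the labels. Counts were filtered with filterByExpr (16210 of 53599 genes kept, at least 99.9% of counts), scaled by TMM and tested with edgeR 4.0.16 (quasi-likelihood, all 12 libraries, Benjamini-Hochberg adjusted p under 0.05), in R 4.3.3, after a test on simulated data. SE is the log2 fold change over the square root of F. Ratios are log2 of counts plus 1 and used exact permutation tests. No 2 libraries of a group agreed within counting noise. Same-numbered libraries deviated together at every step: r was 0.121 to 0.293 from early to intermediate, 0.137 to 0.322 from intermediate to full and 0.170 to 0.257 from full to BEC, so the numbers were taken to pair libraries there. What a number marks is not stated. The main edgeR fit and the permutation tests did not use this pairing, which entered a test only through the replicate block. For full against early and BEC against early the lowest r was 0.0960 and 0.0442.

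The members and lists were chosen with earlier results of these data known. Named genes are the 10 members, 30 listed genes of the 2 routes, defining markers of other cells, and the 5 nearest in course per class among genes with a log2 range of at least 1. Transcript lengths came from GENCODE M21, another build than the counts, and gave lengths only. Alternatives were DESeq2 1.42.0, median-of-ratios factors, library totals, other filters, a replicate block, the 6 libraries of each pair of groups, leaving out each library and, added later, replicates 1 and 2 alone.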

Additional observations from a re-analysis of the deposited data

How the results depend on the processing

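Counts of called members that moved by over 1.5 times did so mainly with library totals in place of TMM. Class I genes called higher and lower then numbered 4 and 1 from early to intermediate, 6 and 1 from early to full, and 6 and 1 from early to BEC, with 6 higher from intermediate to full (all but B2m) and 2 class II genes (Cd74 and H2-Ab1) higher from early to intermediate. The change of slope was called for 6139 genes instead of 2665. With the same totals these values turned sign: H2-K1 at 0.26 (intermediate against early), 0.72 (full against early) and 0.39 (BEC against early), H2-D1 at 0.53, at 0.54 (BEC against early) and at -0.10 (second step minus first), Tap2 at 0.40 and 0.82 (full against early), Psmb8 at 0.41, Psmb9 at 0.58 (full against early) and 0.76 (BEC against early), H2-Aa at 0.60, Psmb6 at 0.16 and Psme1 at 0.20. Small values turned elsewhere. Tap1 at the first step was -0.044 with DESeq2, -0.043 with median-of-ratios factors and -0.0024 with a mean of at least 50 counts. Psmb8 in full against early was -0.0027 with DESeq2, -0.0028 with median-of-ratios factors and -0.021 with the 6 libraries of the 2 groups, and Tap2 was 0.00085 without the filter. Without the filter 1 class I gene was lower in full against early, and with the 6 libraries 1 (B2m) was lower from intermediate to full. DESeq2 called 4 class I genes from early to intermediate, 3 from intermediate to full and 4 from full to BEC, in either direction, more than edgeR at each step. The cause of these changes was not tested. 

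A replicate block raised the class II genes higher from full to BEC to 2 (H2-Aa joined Cd74), and H2-Aa in full against early to an adjusted p of 0.00481. Beside these and the H2-K1 and H2-Aa calls given above, it changed no call of a member.

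Leaving out 1 library at a time, class I genes lower from full to BEC numbered 1 to 3 and in full against early 1 to 2, class II genes higher from early to intermediate 1 to 2, and genes with a change of slope 1676 to 2828. Values near 0 crossed it: Tap1 at the first step ran from -0.047 to 0.11, Cd74 from -0.13 to 0.61 and H2-Aa from -0.51 to 0.50. In full against early Tap2 ran from -0.15 to 0.012 and Psmb8 from -0.076 to 0.085, and in BEC against early Psmb9 ran from -0.18 to 0.011. H2-Ab1 from full to BEC ran from -0.27 to 0.11 and its second step minus first from -0.55 to 0.039. The log2 ratio of Psmb10 to Psmb7 changed by -0.14 to 0.26 at the first step and by -0.11 to 0.021 from full to BEC. H2-Aa rested on 6 to 37 counts per library in the early and intermediate groups, the fewest among the members.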
